A study of Mus musculus with 8 samples.

Results

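The genes described here are 10 imprinted genes that bear on growth, *H19*, *Meg3*, *Rian*, *Plagl1*, *Peg3*, *Zim1*, *Dlk1*, *Grb10*, *Mest* and *Ndn*, taken by name from the 54532 gene identifiers of a bulk RNA sequencing experiment. All 10 were found by symbol, and 9 had enough counts to be tested. Pericytes, the mural cells that sit on the outer wall of capillaries, were grown as primary cultures from the brains of wild-type mice. After papain digestion of the tissue the cells were expanded in endothelial growth medium and then in pericyte medium, so they had passed through several passages before use. Male mice aged 4 and 6 months are named for the mouse work in general, and whether these gave the brain cultures is not stated. Of the 8 cultures, 4 received vehicle (replicates 1 to 4) and 4 received TGF-β1, the ligand of the TGF-β receptors, at 5 μg/mL (replicates 5 to 8), each for 48 h, and no other allele or agent is named for either group. The paper's methods name 4 independent isolates for both treatments, so the groups may share them, with 1 isolate giving a culture to each. The comparison asks how TGF-β1 changes transcription in pericytes, here for imprinted genes.

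Imprinted genes are transcribed mainly or only from the copy inherited from 1 parent, because a DNA methylation mark set in the egg or the sperm distinguishes the copies. They lie in clusters, often with a long non-coding RNA expressed from 1 parental copy and protein-coding genes expressed from the other. Many imprinted genes regulate growth before birth and fall in level afterwards. Among the genes here, *H19*, *Meg3*, *Rian*, *Zim1* and, in most tissues, *Grb10* are expressed from the maternal copy, and *Plagl1*, *Peg3*, *Dlk1*, *Mest* and *Ndn* from the paternal one. Counts per gene do not tell the copies apart, so the values below are totals over both.

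The libraries held 45255235 to 47651397 counts. In this total, 3 counts correspond to 0.0631 to 0.0658 CPM (counts relative to library size, scaled here with edgeR's TMM factors), which is taken as the floor below which a gene is not measured. Between 68.5% and 70.2% of low counts were even numbers, so both mates of a read pair may have been counted and the number of independent fragments may be smaller. The treatment was visible in genes commonly regulated by TGF-β, where *Smad7*, *Skil*, *Ccn2*, *Ltbp2*, *Col1a1*, *Cthrc1*, *Timp3* and *Ltbp3* rose and *Tgfbi* fell. *Skil*, which encodes a repressor of SMAD proteins, went from 104 to 204 CPM. The pericyte markers *Pdgfrb* and *Cspg4* had means of 202 and 82.9 CPM in vehicle, whereas *Abcc9*, *Kcnj8* and *Vtn*, which define brain pericytes in tissue, had at most 9 counts in any culture, and the endothelial genes *Cdh5* and *Pecam1* had 375 and 1.11 CPM.

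The sequences shown first are the start regions of neighbouring genes, and no test below used them. *Meg3* and *Dlk1* lie next to each other on chromosome 12 and were called in opposite directions. Their start regions (windows across the RefSeq start, GRCm38.p6, 5′ to 3′ on the gene's strand) are printed with each CAGAC, the letters that SMAD proteins, the transcription factors of the TGF-β pathway, are known to bind, in capitals on either strand (CAGAC or GTCTG).
Meg3, chr12:109540746-109541045, plus strand: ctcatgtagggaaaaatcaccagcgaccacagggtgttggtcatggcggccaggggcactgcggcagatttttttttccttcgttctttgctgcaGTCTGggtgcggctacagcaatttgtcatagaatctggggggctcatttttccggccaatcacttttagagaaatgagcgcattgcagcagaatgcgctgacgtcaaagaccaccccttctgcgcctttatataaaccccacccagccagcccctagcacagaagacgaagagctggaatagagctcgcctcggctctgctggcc
Dlk1, chr12:109452573-109452872, plus strand: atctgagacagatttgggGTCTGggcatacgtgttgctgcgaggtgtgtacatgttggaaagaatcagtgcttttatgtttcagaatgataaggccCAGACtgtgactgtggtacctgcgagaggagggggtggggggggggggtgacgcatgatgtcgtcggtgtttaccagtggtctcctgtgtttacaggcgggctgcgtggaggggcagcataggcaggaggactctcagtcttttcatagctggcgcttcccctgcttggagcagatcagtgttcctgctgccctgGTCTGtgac
The first window held 1 match and the second held 3. Over all 32851 promoter windows of this length the median was 0, and 49.6% held at least 1. How many hold 3 was not counted. The longer palindrome GTCTAGAC, found in 0.213% of all windows, was in neither printed window. CG pairs, where DNA methylation falls, numbered 13 in the printed *Meg3* window and 9 in the *Dlk1* window, with a median of 7 over all windows. A second RefSeq start of *Meg3*, further into the gene, had 1 CAGAC match and 1 CG pair in its window (chr12:109545148-109545447). *Rian*, which follows *Meg3* on the same strand, had 1 CAGAC match and no CG pair in its own window, and *Dio3*, at the far end of the domain, had no match and 25 CG pairs. A match is a stretch of letters and not a site shown to be bound.

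MicroRNAs lie inside several of these genes and are the best known products of some of them. They are given from RefSeq with the seed, bases 2 to 8, in capitals.
miR-675-5p (in *H19*, chr7:142577112-142577133, minus strand): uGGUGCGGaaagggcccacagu
miR-675-3p (in *H19*, chr7:142577078-142577099, minus strand): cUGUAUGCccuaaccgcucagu
miR-770-5p (in *Meg3*, chr12:109563710-109563731, plus strand): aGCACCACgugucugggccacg
miR-335-5p (in *Mest*, chr6:30741314-30741336, plus strand): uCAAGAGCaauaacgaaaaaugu
miR-127-3p (opposite *Rtl1*, chr12:109592888-109592909, plus strand): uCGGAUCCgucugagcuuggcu
miR-136-5p (opposite *Rtl1*, chr12:109595331-109595352, plus strand): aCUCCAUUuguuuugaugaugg
No seed was shared among these 6. The genes that encode them (*Mir675*, *Mir770*, *Mir127* and *Mir136*) had 0 counts in all 8 cultures and *Mir335* had at most 3, so the host transcripts described next were measured and the mature microRNAs were not.

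Of the 9 tested genes, 5 rose with TGF-β1 (*H19*, *Meg3*, *Rian*, *Peg3* and *Ndn*) and 4 fell (*Plagl1*, *Dlk1*, *Grb10* and *Mest*), by edgeR's quasi-likelihood test with Benjamini-Hochberg adjustment over 22544 genes. In the whole experiment 41.3% of the genes tested were called, 20.9% higher and 20.3% lower. The groups did not overlap for 7 of the 9, with the TGF-β1 cultures above for 4 and below for 3. Among all genes tested 37.9% did not overlap, 19.1% with TGF-β1 above and 18.8% below. The median log2 fold change of the 9 was 0.28, beside -0.01 over all genes. The rises of the 3 non-coding RNAs were between 2.26-fold and 3.05-fold, and those of *Peg3* and *Ndn* were 22.3% and 21.6%. By the parental copy named above, 3 of the 4 maternally expressed genes tested rose and 1, *Grb10*, fell. Of the 5 paternally expressed genes, 2 rose and 3 fell. The copy expressed in these cultures was not measured.

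**Figure D1:**
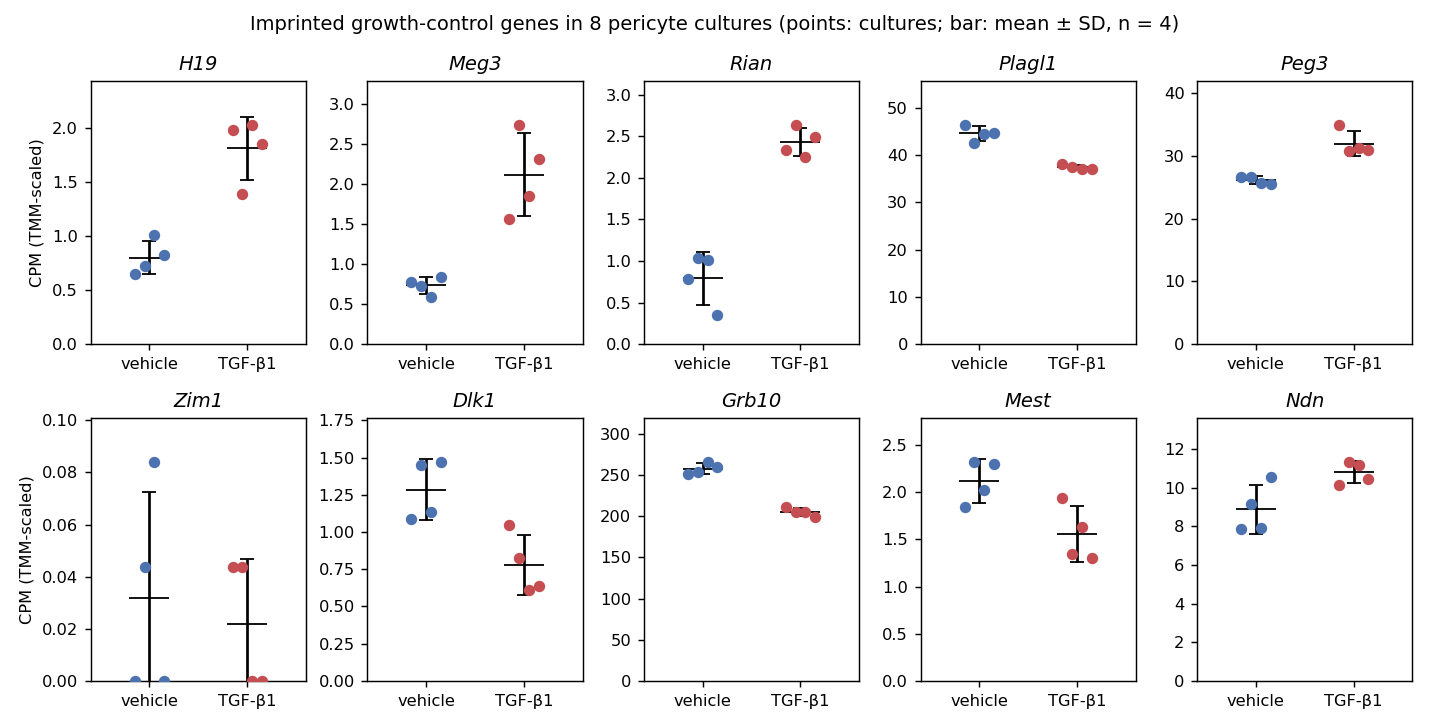
CPM (TMM-scaled, linear axes starting at 0) of the 10 imprinted genes in each culture, with 4 vehicle and 4 TGF-β1 cultures as points and the mean ± SD as bars. *H19*, *Meg3*, *Rian* and *Peg3* have every TGF-β1 culture above every vehicle culture, *Plagl1*, *Dlk1* and *Grb10* have every one below, and *Mest* and *Ndn* overlap.

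The genes differed widely in level. Per kilobase of annotated exon, the vehicle mean was 28.3 ± 0.731 CPM per kb (SD, n = 4) for *Grb10*, 5.70 ± 0.198 for *Plagl1*, 2.40 ± 0.345 for *Ndn* and 1.96 ± 0.0445 for *Peg3*. *Mest* followed at 0.538 ± 0.0584, *H19* at 0.326 ± 0.0633, *Dlk1* at 0.227 ± 0.0359, *Rian* at 0.0434 ± 0.0174 and *Meg3* at 0.0406 ± 0.00602. Of neighbours in this order, only *Rian* and *Meg3* had vehicle values that overlapped, and *Zim1* was at the floor. The exon lengths are unions over annotated isoforms, so the order per kilobase depends on which isoforms are present. Over both groups, 91.2% of the genes that passed the filter on low counts and had an exon length lay below *Grb10* and 62.6% below *Plagl1* on this scale, but only 2.7% below *Meg3* and 3.3% below *Rian*. The rises of the non-coding RNAs were thus changes among transcripts at the low end of the range, and the total of all 10 genes, which *Grb10* dominates, was 337 to 350 CPM in vehicle and 287 to 303 CPM with TGF-β1.

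Among the non-coding RNAs, *H19* (ENSMUSG00000000031, chr7:142575529-142578143, minus strand, GRCm38) is a spliced RNA that is abundant in the embryo and restrains growth in mice. In the vehicle cultures it had 0.651, 0.724, 1.01 and 0.823 CPM, from 30, 33, 48 and 38 counts. With TGF-β1 it had 1.99, 1.39, 2.03 and 1.85 CPM, from 91, 64, 93 and 87 counts. Every TGF-β1 culture lay above every vehicle culture, with replicate 6 the lowest of the 4. The mean rose from 0.802 ± 0.156 to 1.82 ± 0.291 CPM (SD, n = 4 each), a log2 fold change of 1.17 (SE 0.19, edgeR adjusted p = 2.23e-06). On the opposite strand, 5.73% of its exon bases are annotated to another gene, and whether reads were assigned by strand is not stated.

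*Meg3* (ENSMUSG00000021268, chr12:109541001-109571726, plus strand) is the long non-coding RNA whose promoter is active on the maternal copy of the *Dlk1*-*Dio3* domain. It was at 0.781, 0.724, 0.589 and 0.845 CPM in vehicle, where 28 to 39 counts stand behind each value. The TGF-β1 cultures were at 1.57, 2.74, 1.85 and 2.32 CPM, with 72 to 126 counts, and all lay above the vehicle cultures with a wider spread. The log2 fold change was 1.53 (SE 0.20, edgeR adjusted p = 1.13e-08), from a mean of 0.735 ± 0.109 to 2.12 ± 0.517 CPM (SD, n = 4 each).

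*Rian* (ENSMUSG00000097451, chr12:109603940-109661716, plus strand), downstream of *Meg3*, is the host of small nucleolar RNAs. Vehicle replicates 1 to 4 gave 0.781, 1.03, 1.01 and 0.347 CPM, the last from 16 counts, and this culture stood well under the other vehicle cultures. The TGF-β1 values of 2.34, 2.64, 2.25 and 2.49 CPM lay close together and above all of these. The mean went from 0.792 ± 0.318 to 2.43 ± 0.171 CPM (SD, n = 4 each), a log2 fold change of 1.61 (SE 0.20, edgeR adjusted p = 9.84e-09). With each culture left out in turn it was between 1.36 and 1.76. Stretches of 50 bases also found in annotated transcripts of another gene make up 1.24% of *Rian*, 4.29% of *Meg3* and 1.33% of *H19*. For *H19* all of them are shared with *Mir675*, which lies inside its exons. For *Meg3* some are shared with genes inside its exons, such as *Mir770*, and some with genes elsewhere. For *Rian* some are shared with genes that do not overlap its exons. Reads from such stretches fit more than 1 annotated gene.

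Bulk RNA does not separate more RNA per cell from more cells that express a gene. Of the 6 neuron markers listed 3 were tested and 1 rose, *Tubb3*, a tubulin gene, from 2.11 to 7.91 CPM, and the median log2 fold change of the 3 was -0.12. The summed level of the 6 was 4.34–5.55 CPM in vehicle and 9.08–11.9 CPM with TGF-β1, a difference that *Tubb3* makes up. The defining neuronal genes *Rbfox3* and *Snap25* had at most 13 and 12 counts in any culture. The astrocyte sum went from 49.1–54.7 to 29.5–32.1 CPM (of 5 tested genes 1 rose and 2 fell), with *Aqp4* at no more than 6 counts. The fibroblast sum went from 4926–5150 to 6741–7032 CPM (of 7 tested, 3 rose and 3 fell), with *Lum* at no more than 6 counts. The median log2 fold change of these 7 was 0.01, and the list holds *Col1a1*, named above among the genes that TGF-β commonly regulates. The pericyte sum went from 419–439 to 578–601 CPM (of 8 tested, 3 rose and 2 fell), with a median log2 fold change of -0.03. Endothelial (472–486 and 475–501 CPM), microglia (104–109 and 102–105 CPM) and oligodendrocyte (4.12–5.48 and 5.34–6.04 CPM) sums moved less. Of 6 endothelial genes tested 2 rose and 1 fell, and of 6 microglia genes 1 rose. Of 4 oligodendrocyte genes tested 1 rose and 1 fell. Beside these counts, 41.3% of all genes tested were called, 20.9% higher and 20.3% lower. The part of these cell types in the results was not tested.

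The zinc-finger genes are *Plagl1*, *Peg3* and *Zim1*. *Plagl1* (ENSMUSG00000019817, chr10:13060504-13131694, plus strand), also known as Zac1, is a transcription factor that slows the cell cycle and regulates other imprinted genes. It was at 46.3, 42.6, 44.5 and 44.7 CPM in vehicle and at 38.2, 37.4, 36.9 and 37.0 CPM with TGF-β1. The groups were separate, and the TGF-β1 cultures lay closer together than the vehicle cultures. The mean fell by 16.1%, from 44.5 ± 1.55 to 37.4 ± 0.563 CPM (SD, n = 4 each), a log2 fold change of -0.25 (SE 0.04, edgeR adjusted p = 2.43e-07).

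*Peg3* (ENSMUSG00000002265, chr7:6703892-6730431, minus strand) encodes a large zinc-finger protein known for its effects on fetal growth and maternal behaviour. In vehicle it was at 26.6, 26.6, 25.6 and 25.6 CPM. With TGF-β1 it was at 34.9, 30.7, 31.2 and 30.9 CPM, replicate 5 standing above the others of its group. The mean rose from 26.1 ± 0.593 to 31.9 ± 2.00 CPM (SD, n = 4 each), a log2 fold change of 0.29 (SE 0.05, edgeR adjusted p = 7.37e-07). Without any 1 culture, replicate 5 included, the log2 fold change stayed between 0.24 and 0.31 and the call was kept.

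*Zim1* (ENSMUSG00000002266, chr7:6671269-6696450, minus strand), the maternally expressed neighbour of *Peg3*, was not measurable. It had 0, 2, 4 and 0 counts in vehicle and 2, 2, 0 and 0 with TGF-β1, and was left out of the test by the filter on low counts. Of the other imprinted genes next to *Peg3*, *Usp29* had at most 14 counts in any culture and *Zim3* and *Zfp264* at most 2, so *Peg3* was the only gene tested here in this cluster.

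The remaining genes act in signalling or in the control of cell growth. *Dlk1* (ENSMUSG00000040856, chr12:109452823-109463336, plus strand) encodes a membrane protein with EGF repeats that keeps precursor cells undifferentiated and can interfere with Notch signalling. It was at 1.09, 1.45, 1.14 and 1.47 CPM in vehicle and at 1.05, 0.828, 0.611 and 0.638 CPM with TGF-β1. The groups were separate by a small margin, because TGF-β1 replicate 5 lay just under the lowest vehicle culture. The mean fell by 39.2%, from 1.29 ± 0.203 to 0.781 ± 0.202 CPM (SD, n = 4 each), a log2 fold change of -0.72 (SE 0.22, edgeR adjusted p = 0.00586). Counts were 50 to 68 per culture in vehicle and 28 to 48 with TGF-β1.

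*Grb10* (ENSMUSG00000020176, chr11:11930508-12038683, minus strand) encodes an adaptor that binds the activated insulin and IGF1 receptors and dampens their signal. It was by far the most abundant of the 10, with 251, 254, 266 and 259 CPM in vehicle and 211, 205, 205 and 199.6 CPM with TGF-β1. The groups were separated by more than the range within either. The mean fell by 20.3%, from 258 ± 6.64 to 205 ± 4.71 CPM (SD, n = 4 each), a log2 fold change of -0.33 (SE 0.02, edgeR adjusted p = 3.22e-15).

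*Mest* (ENSMUSG00000051855, chr6:30723547-30748465, plus strand) encodes a membrane protein of the hydrolase family and is a marker of growing mesenchyme and fat. It was at 1.84, 2.32, 2.02 and 2.30 CPM in vehicle and at 1.94, 1.35, 1.64 and 1.30 CPM with TGF-β1. The groups overlapped, since TGF-β1 replicate 5 exceeded vehicle replicate 1. The mean went from 2.12 ± 0.230 to 1.56 ± 0.297 CPM (SD, n = 4 each), a log2 fold change of -0.45 (SE 0.16, edgeR adjusted p = 0.0223). This call was lost without vehicle replicate 2 (edgeR adjusted p = 0.0689), vehicle replicate 4 (0.0633), TGF-β1 replicate 6 (0.0752) or TGF-β1 replicate 8 (0.0957). In addition, 23.1% of its exon bases lie opposite another gene on the other strand, 912 of them opposite *Copg2*, which was expressed at 29.7 CPM and fell as well, so reads of the 2 genes cannot be told apart there if strand was not used.

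*Ndn* (ENSMUSG00000033585, chr7:62346569-62350262, plus strand) encodes necdin, a MAGE-family protein that restrains proliferation and is best known from the Prader-Willi region and from neurons. It was at 7.85, 9.17, 7.91 and 10.5 CPM in vehicle and at 10.1, 11.3, 11.2 and 10.5 CPM with TGF-β1. The groups overlapped through vehicle replicate 4, which had the level of the TGF-β1 cultures. The mean rose from 8.87 ± 1.27 to 10.8 ± 0.569 CPM (SD, n = 4 each), a log2 fold change of 0.28 (SE 0.08, edgeR adjusted p = 0.00336).

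**Figure D2:**
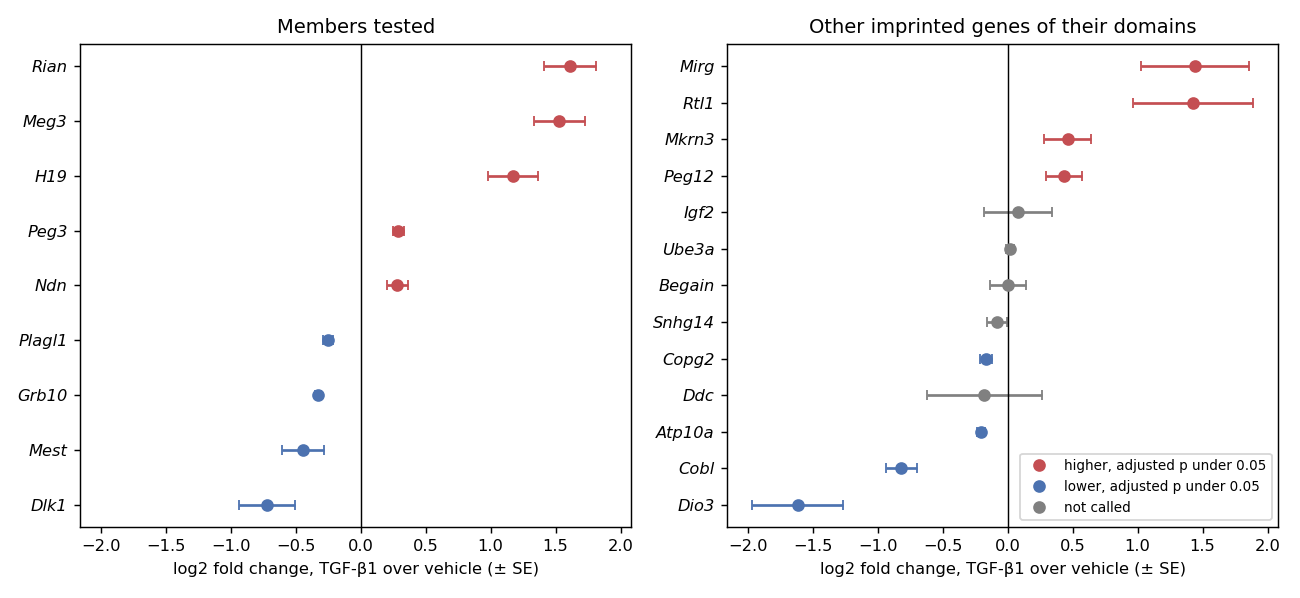
Log2 fold change (TGF-β1 over vehicle, edgeR) with its SE for the 9 tested genes and, at the right, for the other tested imprinted genes of the same domains, red where higher and blue where lower at an adjusted p under 0.05, grey where not called. *Rian*, *Meg3* and *H19* lie above 1 with *Mirg* and *Rtl1*, *Dio3* lies lowest at -1.61, and *Peg3*, *Ndn*, *Plagl1*, *Grb10* and *Mest* lie within 0.5 of 0.

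Among the domains of these 10 genes, the *Dlk1*-*Dio3* domain held the largest changes of tested neighbours. It spans 828.3 kb of chromosome 12 (109452823 to 110281097) and holds 118 annotated genes, of which 47 had a count in any culture and 9 were tested. *Meg3* and *Rian* rose, and *Mirg*, the downstream host of a microRNA cluster that is also expressed from the maternal copy, rose with them. *Mirg* had 2, 8, 10 and 9 counts in vehicle and 15, 31, 18 and 15 with TGF-β1, so the groups did not overlap, and its log2 fold change was 1.44 (SE 0.42, edgeR adjusted p = 0.00428). Without TGF-β1 replicate 6, which had the most counts, this was 1.13 with an adjusted p of 0.0529.

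Both ends of the domain went the other way. *Dio3*, which encodes the deiodinase that inactivates thyroid hormone and is expressed mainly from the paternal copy, had 24, 32, 32 and 33 counts in vehicle and 9, 16, 4 and 10 with TGF-β1. All TGF-β1 cultures lay below all vehicle cultures, with a mean of 0.653 ± 0.0897 against 0.211 ± 0.107 CPM (SD, n = 4 each) and a log2 fold change of -1.61 (SE 0.35, edgeR adjusted p = 1.58e-04). *Dlk1*, at the other end and also expressed from the paternal copy, fell as given above. *Begain*, next to *Dlk1* and outside the interval, was at 2.61 CPM in both groups (log2 fold change 0.00, 95% interval -0.34 to 0.34).

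*Rtl1*, a retrotransposon-derived gene expressed from the paternal copy, was the third paternally expressed gene of the domain, and its counts went up and not down. It had 14, 2, 4 and 4 counts in vehicle and 12, 25, 16 and 12 with TGF-β1, and the groups overlapped through vehicle replicate 1. The log2 fold change was 1.43 (SE 0.46, edgeR adjusted p = 0.0114), and the call was lost without vehicle replicate 2 (adjusted p = 0.0606) or TGF-β1 replicate 6 (0.0874). Without vehicle replicate 1 the log2 fold change was 2.26. A maternally expressed transcript runs opposite *Rtl1*, and 8.12% of its exon bases are annotated to microRNA genes on that strand (*Mir127*, *Mir136*, *Mir431*, *Mir432*, *Mir433* and *Mir434*), so reads counted for *Rtl1* may come from either strand if strand was not used.

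The other 3 tested genes in the interval are unnamed gene models. *Gm37899*, between *Rian* and *Mirg*, had a log2 fold change of 1.13 (SE 0.48, edgeR adjusted p = 0.0519), and *Gm34719* and *Gm47188*, between *Mirg* and *Dio3*, had 0.12 and 0.05. The 90 microRNA and small nucleolar RNA genes of the interval had at most 4 counts in any culture and none was tested.

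**Figure D3:**
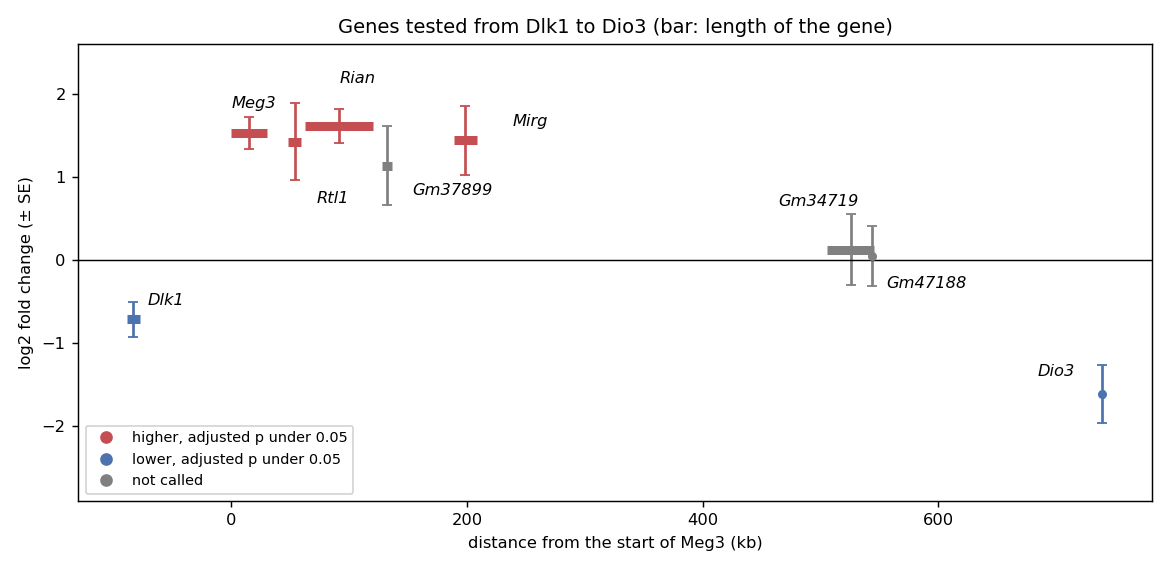
Log2 fold change (TGF-β1 over vehicle, edgeR, with SE) of the 9 tested genes from *Dlk1* to *Dio3* against distance in kb from the start of *Meg3*, with horizontal bars for gene length and colours for the call. The genes from *Meg3* to *Mirg* lie above 1, and *Dlk1* and *Dio3*, at the ends, lie below 0 at -0.72 and -1.61.

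Ratios within a culture need no scaling between libraries. *Rian* to *Meg3* was 1.00, 1.42, 1.71 and 0.410 in vehicle and 1.49, 0.960, 1.21 and 1.07 with TGF-β1, and the groups overlapped. The mean log2 ratio differed by 0.22 (SE 0.48, exact two-sided permutation test over 35 splits, p = 0.771, adjusted over 3 ratios 0.771). Without vehicle replicate 4, where *Rian* was low, the difference was -0.21. By contrast, *Meg3* to *Dlk1* was 0.5 to 0.720 in vehicle and 1.5 to 3.63 with TGF-β1, *Rian* to *Dlk1* was 0.235 to 0.889 and 2.23 to 3.90, and *Meg3* to *Dio3* was 0.875 to 1.5 and 7.88 to 21.2. These 3 ratios were chosen after the values were seen and were not tested.

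*H19* shares enhancers with *Igf2*, the gene of the insulin-like growth factor that drives fetal growth and is expressed from the paternal copy. *Igf2* had 24 to 44 counts in every culture and means of 0.641 and 0.677 CPM, and was not called (log2 fold change 0.08, 95% interval -0.56 to 0.72, edgeR adjusted p = 0.849). *H19* to *Igf2* was 0.968, 1.14, 1.37 and 1.58 in vehicle and 3.64, 1.46, 3.58 and 2.90 with TGF-β1. TGF-β1 replicate 6, which had the lowest *H19* and the highest *Igf2* of its group, lay among the vehicle cultures. The mean log2 ratio was higher by 1.13 (SE 0.35), which the exact permutation test did not call (p = 0.0571, adjusted 0.171, with 0.0286 the smallest p that 4 against 4 cultures allow). An annotated read-through model (*Gm49394*) covers 62.8% of the *Igf2* exons on the same strand, and the *Igf2* level may be incomplete if reads shared by 2 genes were dropped.

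*Copg2*, the neighbour of *Mest* that encodes a coat protein of the Golgi, fell by 0.17 on the log2 scale (SE 0.04, edgeR adjusted p = 0.00236), with 29.7 ± 1.39 CPM in vehicle and 26.5 ± 0.800 CPM with TGF-β1 (SD, n = 4 each). *Mest* to *Copg2* was 0.0621, 0.0818, 0.0639 and 0.0792 in vehicle and 0.0768, 0.0504, 0.0611 and 0.0480 with TGF-β1, which overlapped. The mean log2 ratio differed by -0.29 (SE 0.19, exact permutation test p = 0.114, adjusted 0.171).

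**Figure D4:**
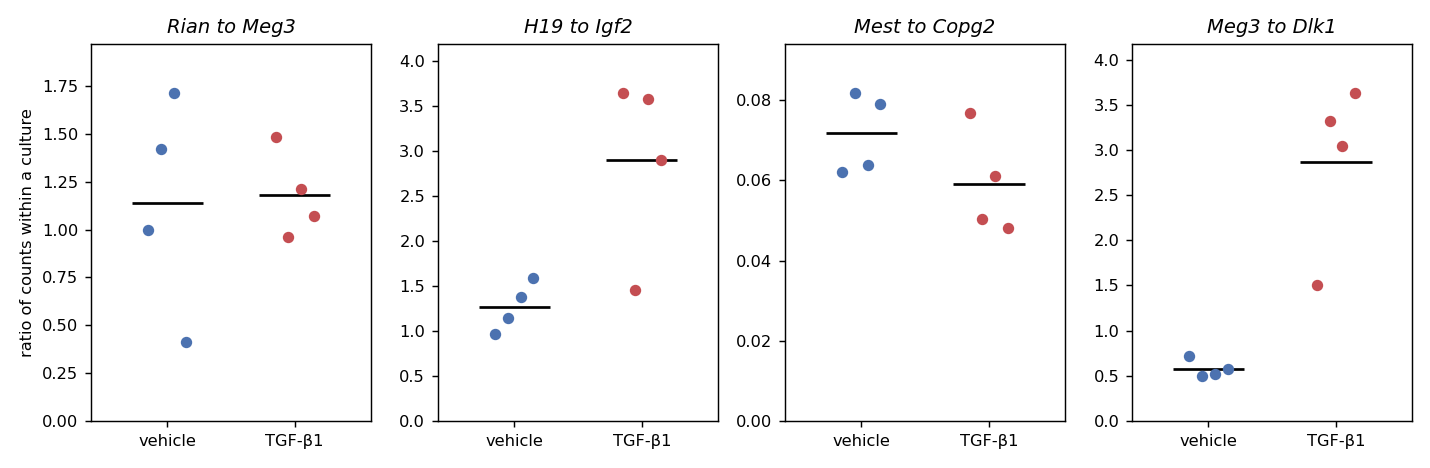
Ratio of the counts of 2 genes within each culture (linear axes from 0, points are the 4 vehicle and 4 TGF-β1 cultures, lines are means). *Rian* to *Meg3* and *Mest* to *Copg2* overlap between groups, *H19* to *Igf2* overlaps through 1 TGF-β1 culture at 1.46, and *Meg3* to *Dlk1*, which was not tested, is 0.5 to 0.720 in vehicle and 1.5 to 3.63 with TGF-β1.

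Next to *Grb10*, *Cobl*, which encodes an actin nucleator, fell from 4.80 to 2.72 CPM (log2 fold change -0.82, SE 0.12, edgeR adjusted p = 1.80e-07), and *Ddc*, the gene of the enzyme that makes dopamine and serotonin, had at most 15 counts in any culture (log2 fold change -0.18, adjusted p = 0.789). Around *Ndn*, the paternally expressed *Peg12* (2.31 to 3.13 CPM, log2 fold change 0.43, adjusted p = 0.0106) and *Mkrn3* (1.21 to 1.66 CPM, 0.46, adjusted p = 0.0381) rose. The *Peg12* call was lost without vehicle replicate 2 or TGF-β1 replicate 5. The *Mkrn3* call was lost with DESeq2 (adjusted p = 0.0659), with a looser count filter (0.0702) and without vehicle replicate 1, TGF-β1 replicate 7 or TGF-β1 replicate 8. *Atp10a*, at the far end of this domain, fell from 86.0 to 74.7 CPM (-0.20, adjusted p = 4.31e-07), while *Ube3a*, a ubiquitin ligase gene (0.02, adjusted p = 0.661), and the long non-coding *Snhg14* (-0.08, adjusted p = 0.423) were not called. *Magel2*, *Snrpn* and *Snurf* had too few counts to be tested, with at most 10, 18 and 0 in any culture.

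Beyond the 10 genes, 69 other imprinted genes were listed, 68 were found and 55 were tested, of which 12 rose, 18 fell and 25 were not called. The share called was 54.5%, beside 41.3% of all genes tested, and the median log2 fold change was -0.08, beside -0.01. In the *Kcnq1* domain 6 of 11 tested genes fell and 1 rose. *Cdkn1c*, which encodes the cyclin-dependent kinase inhibitor p57 and restrains growth, fell from 5.83 ± 0.556 to 2.43 ± 0.268 CPM (SD, n = 4 each), a log2 fold change of -1.26 (SE 0.11, edgeR adjusted p = 6.30e-13). *Tspan32*, a tetraspanin gene of the same domain, fell from 2.86 to 1.37 CPM (-1.06, adjusted p = 2.44e-07).

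Other imprinted genes that moved were *Slc38a4*, an amino acid transporter gene (3.15 to 1.96 CPM, log2 fold change -0.68, edgeR adjusted p = 8.10e-05), and *Gpr1*, a chemerin receptor gene (1.49 to 0.968 CPM, -0.62, adjusted p = 0.0106, but 0.0651 without TGF-β1 replicate 6). *Herc3*, a gene of the HECT ubiquitin ligase family, rose from 10.6 to 17.6 CPM (0.73, adjusted p = 9.17e-14), and *Sfmbt2*, a Polycomb-group gene, rose to 20.3 CPM (0.53, adjusted p = 3.14e-10). The long non-coding RNAs of other imprinted domains did not rise together. *Kcnq1ot1* fell from 568 to 470 CPM and *Airn* from 39.7 to 29.2 CPM, *Peg13* rose from 37.7 to 42.7 CPM, and *Nespas* was not called. These RNAs were chosen for mention after their values were seen, and they were not matched to *H19*, *Meg3* and *Rian* by parental copy.

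*Grb10* acts on the insulin and IGF1 pathway, where 5 of 11 listed genes rose and 3 fell, or 72.7% called beside 41.3% of all genes tested (20.9% higher and 20.3% lower). *Igf1*, the ligand of the IGF1 receptor, rose from 0.469 to 3.18 CPM (log2 fold change 2.75, SE 0.19, edgeR adjusted p = 2.23e-16), and *Irs2*, which carries the signal from the receptors, from 67.1 to 114 CPM (0.76, SE 0.03, adjusted p = 3.86e-25). Of the 9 Notch pathway genes listed beside *Dlk1*, 8 were tested, 3 rose and 2 fell, or 62.5% called. The largest called changes were those of *Hey1*, a transcriptional target (-0.82, SE 0.34, adjusted p = 0.0485), and *Notch4*, a receptor (0.49, SE 0.07, adjusted p = 3.23e-07), although *Jag1*, a ligand, moved as much as *Notch4* in the other direction (-0.49, SE 0.04, adjusted p = 8.39e-16). Of 12 cell cycle genes 8 rose and none fell, or 66.7% called, led by *Ccne2*, a cyclin gene (0.50, SE 0.04), and *Bub1*, a spindle checkpoint gene (0.35, SE 0.03).

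Across the 8 cultures, the 2 genes most like each tested member were found among 16493 genes with a mean of at least 1 CPM, by Pearson's r of log2 CPM. For *Meg3* these were *Nuak2* (r = 0.996) and *Otud7b* (0.991), and for *Rian* they were *Gabre* (0.974) and *1700001D01Rik* (0.974), so neither of the pair was among the 2 closest of the other. *H19* was closest to *Hilpda* and *Rap2b* (both 0.990), *Peg3* to *Cfap69* (0.993) and *Epha7* (0.987) and *Ndn* to *Mcm3ap* (0.975) and *Tmem129* (0.970). Among the genes that fell, *Grb10* was closest to *Clic4* (0.998) and *Stard5* (0.998), *Plagl1* to *Olfr656* (0.996) and *Il1rapl1* (0.995), *Dlk1* to *Nrip3* (0.992) and *Znrf1* (0.985) and *Mest* to *Plekhg5* (0.978) and *Alg1* (0.977). These values are descriptions over 8 points that share the split by treatment. Within the groups, with the group means removed, the correlations between pairs of the 9 genes ran from -0.755 (*H19* and *Meg3*) to 0.684 (*Dlk1* and *Mest*) over 36 pairs. The correlation of *Meg3* and *Rian* was -0.277.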

How the data were processed

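The deposited values are raw counts of reads per Ensembl gene, 1 library per culture, made by the authors with a stranded total RNA kit. Per the paper's methods and the submitters' processing notes, reads were aligned to mm10 with STAR 2.7.5c in 2-pass mode, PCR duplicates were removed with samtools 1.15, and reads were counted with featureCounts 2.0.3. Which strand was counted, which annotation was used and how reads that fit several genes were treated are not given in the sources used here.

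Symbols were paired with 54409 of 54532 identifiers, and positions in GENCODE M21 on GRCm38 with 54495. Counts were tested with edgeR 4.0.16 in R 4.3.3 (filterByExpr, TMM factors of 0.988 to 1.009, robust quasi-likelihood test, no covariate), with Benjamini-Hochberg adjustment over 22544 genes and a threshold of 0.05. A standard error is the log2 fold change divided by the square root of F. Ratios of neighbours were tested by exact permutation (two-sided). A planned ratio of *Zim1* to *Peg3* could not be computed, because *Zim1* had 0 counts in 4 cultures, so 3 ratios were adjusted together. On simulated data for the 22544 genes, 164 of 200 changed genes were called, with 17 false calls. All changed genes were given the same size of change, up or down, in independent cultures. That size was larger than the changes of *Plagl1*, *Peg3*, *Dlk1*, *Grb10*, *Mest* and *Ndn*, so recovery of changes as small as theirs was not simulated. Replicates were compared by chi-square per degree of freedom on the raw counts (2.25 to 3.93). Counting both mates of a pair would raise this value as well, so it cannot show whether a library was a repeat of another.

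The 10 genes, the lists and the tests were chosen with earlier results of these data known. Named were all 10 genes, every tested imprinted gene of their domains, the 6 largest called changes of at least 1 CPM among the other imprinted genes, the 2 largest in each pathway list, the TGF-β response genes (1 result is not reported here) and the 2 most similar genes per member. Genes outside this rule were chosen after their values were seen. Alternatives were DESeq2 1.42.0, 3 other scalings, 2 other count filters, halved counts and each culture left out, and those for the named genes that are not among the 10 were added after the data were seen.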

Additional observations from a re-analysis of the deposited data

Results flagged for a closer look

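Within each group of 4 cultures, the highest or lowest value was set against the value nearest to it (the gap over the range, against Dixon's critical value). This was done for the tested genes among the 10 and for their tested neighbours. The other imprinted genes named for the largest changes, the tested ratios and the library totals were included as well. Of 64 such groups 3 held a far value, and chance gives about 1 in 20 groups, or 3.2. TGF-β1 replicate 5 was the highest of its group for *Peg3* (34.89 CPM, the next 31.16) and the lowest for *Copg2* (25.29 CPM, the next 26.8). Vehicle replicate 1 was the highest of its group for *Rtl1* (0.3038 CPM from 14 counts, the next 0.08665).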

How the results depend on the processing

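Over the 9 tested genes and 15 alternatives each, all 135 recomputed log2 fold changes kept their direction and 131 kept their call, the 4 others being those of *Mest* without 1 culture (log2 fold change -0.57 to -0.36 over the 8 fits). The number of the 9 called was 8 to 9 without 1 culture and 9 in each of the other 7 alternatives, and among all genes 8559 to 9311 were called (8655 of 26385, 32.8%, with DESeq2). Other imprinted genes called numbered 26 to 32. Without 1 culture, *Rian* to *Meg3* differed by -0.21 to 0.48, *H19* to *Igf2* by 0.99 to 1.43 and *Mest* to *Copg2* by -0.43 to -0.20 on the log2 scale. Of the neighbours not called, *Begain*, *Igf2*, *Ddc* and *Ube3a* changed sign and *Snhg14* did not. *Begain* was at -0.0088 with library totals only, -0.0038 with upper-quartile factors and -0.0033 with a filter of 1 count in any culture, and was between -0.10 and 0.087 without 1 culture (-0.063, -0.102 and -0.0042 without vehicle replicate 3, TGF-β1 replicate 7 and TGF-β1 replicate 6). Without 1 culture *Igf2* was between -0.14 and 0.16 (-0.012 without vehicle replicate 4), *Ddc* between -0.41 and 0.071 (0.055 without TGF-β1 replicate 7) and *Ube3a* between -0.0044 and 0.034 (-0.0024 without vehicle replicate 4). *Tfpi2*, which had 0, 0, 3 and 0 counts in vehicle and 9, 14, 10 and 22 with TGF-β1, was not tested by edgeR and was called by DESeq2 (adjusted p = 1.44e-04). The cause of these differences was not tested. Another scaling moved the median of all genes by under 0.1 on the log2 scale.

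Low counts limit *H19*, *Meg3*, *Rian* and *Dlk1*, where 16 to 126 counts stand behind a value, and more so *Mirg*, *Rtl1* and *Dio3*, with 2 to 33. With 4 cultures per group and cultures of separate isolates named only in the paper's methods, p-values measure the spread between these cultures. No paired analysis was possible because the labels number the vehicle cultures 1 to 4 and the TGF-β1 cultures 5 to 8 and give no isolate. If each isolate gave a culture to both groups, the 8 cultures are not independent, and the fits treat them as if they were.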
